A study of Rattus norvegicus with 6 samples.

Results

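The genes described here are 42 genes of the unfolded protein response and of the response to amino acid shortage. They were chosen by name from knowledge of these pathways, with earlier results of these data known. Of the 42 genes, 39 had a probe set assigned to that gene alone. Ern1, a stress sensor of the endoplasmic reticulum (ER), Edem1, of ER-associated degradation, and Sesn2, a stress-induced sestrin, were not analysed here. The 39 genes stood among 14506 measured genes, and where a gene had several probe sets the brightest on average stood for it. Psat1 and Mthfd2 had 2 probe sets each.

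Proteins that enter the ER are folded there by chaperones such as Hspa5 (BiP), and disulphide bonds are formed by protein disulphide isomerases. When unfolded protein accumulates, the sensors Atf6, Ern1 (IRE1) and Eif2ak3 (PERK) raise the transcription of chaperones and of degradation machinery, through Atf6 itself, spliced Xbp1 and Atf4. Atf4 is also translated when amino acids run short, and it induces genes of amino acid synthesis and of tRNA charging. Secretory cells, among them the catecholamine-storing glomus cells of the carotid body, pass a large flow of protein through the ER.

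The RNA came from neurospheres, free-floating cell clusters grown for 10 days from dispersed carotid body cells of adult rats in neural crest medium. For 3 arrays, labelled undifferentiated, the medium held mitogens (FGF, EGF, IGF-1 and ET-1) in normal oxygen, and for 3 arrays, labelled differentiated, it held no mitogen and oxygen was at 3%. Mitogens and oxygen changed together, so the effects of either cannot be told apart. The sources used here give neither the age, strain and number of animals nor whether a group's arrays hold separate cultures, so the p-values cover the spread between these arrays alone, which may be technical. The series addressed how molecular pathways differ between spheres enriched in neuronal cells and spheres enriched in undifferentiated cells.

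Values are log2 probe set values as deposited, and every change is the mean of the arrays labelled differentiated minus that of the arrays labelled undifferentiated, with 3 arrays each. Array medians lay between 5.05 and 5.13, and the lowest value of any of the 39 genes on any array was 5.15, above the array lower quartiles of 3.37 to 3.52. The arrays did not bear out the labels for the oxygen-sensing cell type. All 16 measured markers of glomus cells were lower in the arrays labelled differentiated, where their summed linear level was 5580 to 7820 against 41300 to 45200 in the other group. All 14 measured markers of fibroblasts and mesenchyme were higher there, with sums of 44100 to 46100 against 17600 to 23200. The groups are therefore named by their labels throughout. Whether the labels were exchanged was not tested; an exchange would turn every direction given here and swap the medium and oxygen of the groups. Of 8 glial markers 2 were higher, and of 10 macrophage markers 3 were higher and 2 lower. Of 7 endothelial markers 1 was higher and 2 lower, and of 5 markers of plasma and B cells 1 was higher. At the same threshold, a limma adjusted p under 0.05, 14.7% of all 14506 genes were higher and 14.9% lower. The summed glial level was 1180 to 2120 against 1260 to 1680, the macrophage level 2430 to 4390 against 2050 to 3060, the endothelial level 273 to 290 against 435 to 603, and the plasma and B cell level 456 to 624 against 397 to 480. The lower endothelial sum rested largely on Cldn5, with a mean of 8.14 in the arrays labelled undifferentiated and 5.84 in those labelled differentiated. Pecam1, Cdh5 and Kdr did not pass and read 3.45 to 4.51. Sdc1, which did not pass, was the largest term of the plasma and B cell sum. No marker was at 0 on this log2 scale, and Jchain, of antibody-secreting cells, read 2.25 to 2.68, below the array lower quartiles. The part of these cell types in the results below was not tested. In bulk RNA, fewer cells of a type and less RNA per cell cannot be told apart.

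Transcripts of 8 of 14 ER chaperones and folding enzymes and of all 3 measured degradation factors were lower in the arrays labelled differentiated. So were those of 3 of the 5 measured genes listed as Atf4 targets, while the enzymes of the first steps of serine synthesis were higher. Other genes that Atf4 induces, of amino acid synthesis and of tRNA charging, are counted under roles of their own. The 5 genes therefore do not stand for all Atf4 targets. Of the 39 genes, 4 rose and 17 fell at a limma adjusted p under 0.05, and 18 did not pass. Among all 14506 genes, 29.5% passed, 14.7% higher and 14.9% lower. The share of the 39 genes that fell was 43.6%, and the share that rose was 10.3%, which is near the background. Their median change was -0.23, against 0.06 over all genes. In 20 of them all arrays labelled differentiated lay below all arrays labelled undifferentiated, and in 5 all lay above, where 19.8% and 22.5% of all genes had such groups. The number that fell was 11 without undifferentiated replicate 3. As the genes were chosen with earlier results of these data known, their shares beside those of all genes are descriptions.

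**Figure D1:**
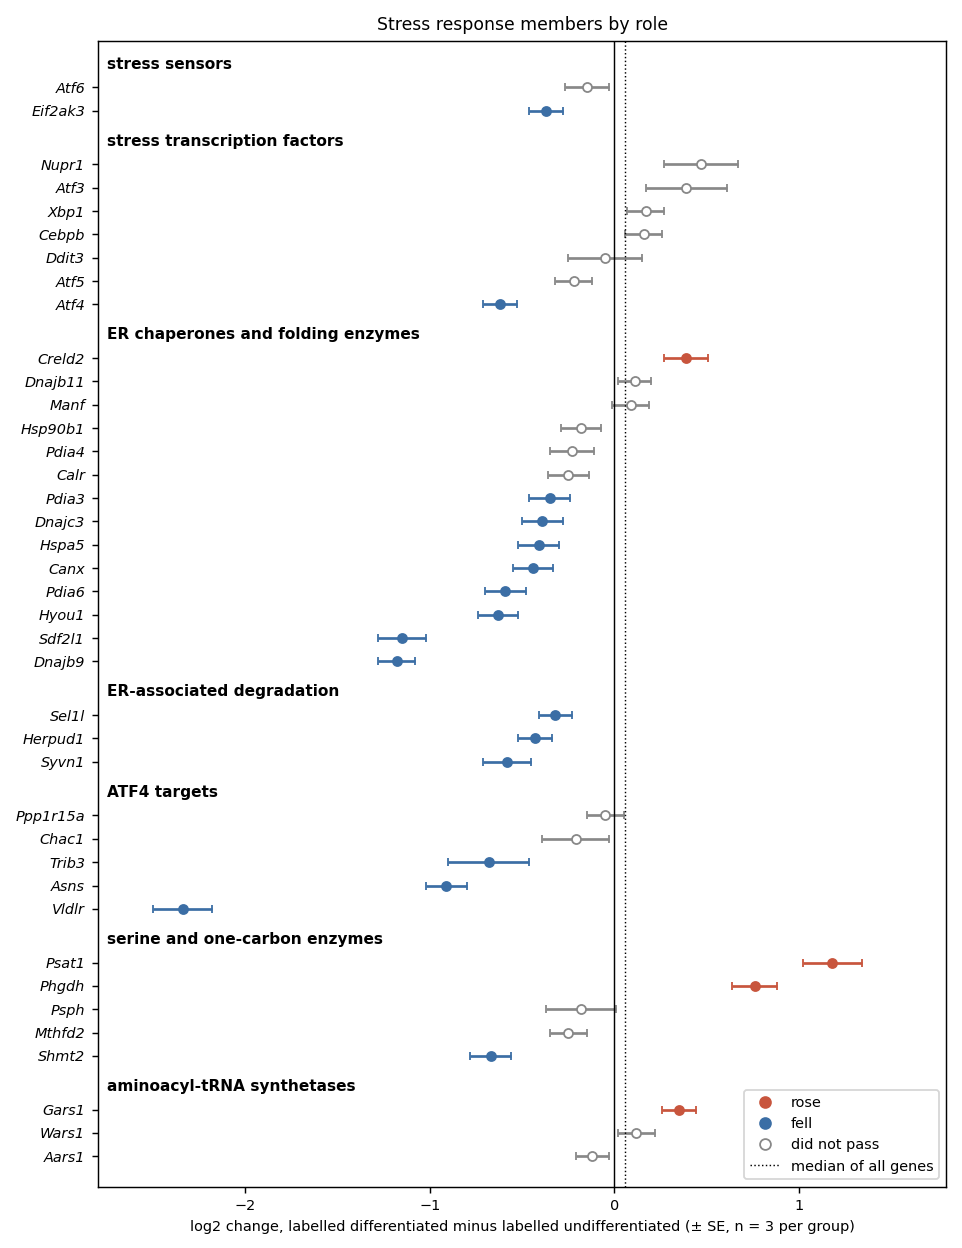
Log2 change of each of the 39 measured genes, labelled differentiated minus labelled undifferentiated, with its SE (horizontal bars) and 3 arrays per group, grouped by role. Filled points passed at a limma adjusted p under 0.05 and open points did not; the dotted line is the median of all genes, 0.06. The changes run from -2.34 for Vldlr to 1.18 for Psat1.

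Promoter sequences are shown for genes that carry known elements of the ATF6 and XBP1 branch or of the ATF4 branch. Herpud1 carries an element of both. Calr, Hsp90b1 and Aars1 also carry an element, and their sequences are not shown. These genes did not pass, and neither did Xbp1, Chac1 and Nupr1, whose sequences are shown. RefSeq promoter sequences (build GRCr8) were found for 35 of the 42 genes, 36 sequences in all since Hyou1 has 2, and the 250 bases before each start were searched on both strands. The ER stress element (ERSE, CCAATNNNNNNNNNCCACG), bound by ATF6 and XBP1, was found in 6 of 12 promoter sequences of chaperones (50%) and in that of Xbp1 itself, 7 of the 36 in all (19.4%), against 0.0657% of all 33469 promoter sequences. The shorter ERSE-II (ATTGGNCCACG) was found in Hyou1 and Herpud1, against 0.0418% of all promoters, and the core of the unfolded protein response element (TGACGTGG) in Hyou1 alone, against 0.52%. The core of the element shared by ATF4 and C/EBP factors (CARE, TGATGNAA) was found in Trib3, Chac1, Nupr1, Herpud1 and Aars1, 5 of 36 (13.9%), against 3.4%. A match describes letters only and is not evidence that a factor bound there. Because the genes were chosen as known members of these pathways, their shares beside those of all promoters are descriptions and were not tested. Below, capitals mark the matched elements, sequences run 5′ to 3′ along the gene's strand, and distances are counted back from the start. In Hyou1 the core element and an ERSE-II on the opposite strand overlap.
Hspa5, chr3:38452953-38453011, plus strand, 63 to 5 bases before the start: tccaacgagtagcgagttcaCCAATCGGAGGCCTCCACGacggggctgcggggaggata
Dnajc3, chr15:102432514-102432572, plus strand, 153 to 95 bases before the start: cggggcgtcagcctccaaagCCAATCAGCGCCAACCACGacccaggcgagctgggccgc
Canx, chr10:35158049-35158107, minus strand, 250 to 192 bases before the start: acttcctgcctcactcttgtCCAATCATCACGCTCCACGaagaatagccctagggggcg
Creld2, chr7:121789219-121789277, plus strand, 165 to 107 bases before the start: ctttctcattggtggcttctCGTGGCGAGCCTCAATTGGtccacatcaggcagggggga
Xbp1, chr14:84604538-84604596, plus strand, 85 to 27 bases before the start: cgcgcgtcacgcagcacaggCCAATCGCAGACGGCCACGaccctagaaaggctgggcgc
Hyou1, chr8:53602671-53602824, plus strand, 211 to 58 bases before the start: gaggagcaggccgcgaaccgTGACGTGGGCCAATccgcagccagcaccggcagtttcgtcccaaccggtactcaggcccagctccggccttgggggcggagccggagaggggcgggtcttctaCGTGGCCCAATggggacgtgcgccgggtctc
Herpud1, chr19:10614801-10614911, minus strand, 204 to 94 bases before the start: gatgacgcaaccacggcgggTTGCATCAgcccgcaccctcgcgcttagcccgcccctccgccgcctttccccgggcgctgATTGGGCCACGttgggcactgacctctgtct
Trib3, chr3:161275534-161275574, minus strand, 41 to 1 bases before the start: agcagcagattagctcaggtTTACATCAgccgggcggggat
Chac1, chr3:126795944-126795991, plus strand, 187 to 140 bases before the start: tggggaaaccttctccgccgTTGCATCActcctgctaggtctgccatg
Nupr1, chr1:190645929-190645976, minus strand, 75 to 28 bases before the start: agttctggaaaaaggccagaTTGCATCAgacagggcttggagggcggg

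Genes with the same element did not all move alike. Of the 7 measured genes with an ERSE, Hspa5, Canx and Dnajc3 fell, Creld2 rose, and Calr, Hsp90b1 and Xbp1 did not pass. Both genes with an ERSE-II fell. Of the 5 with a CARE core, Herpud1 and Trib3 fell and Aars1, Chac1 and Nupr1 did not pass.

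Of the stress sensors, Eif2ak3, the kinase that halts translation under ER stress, fell from 7.78 ± 0.07 to 7.41 ± 0.03 (SD, n = 3 each), a change of -0.37 ± 0.09 (SE, limma adjusted p = 0.0104). Its groups did not overlap. Atf6, the membrane-bound sensor that is cleaved into a transcription factor, differed by -0.15 ± 0.12 (limma adjusted p = 0.423), and its groups overlapped.

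Among the 7 transcription factors 1 fell, Atf4, 0 rose and 6 did not pass, with a median of 0.16. Atf4 read 9.97, 9.94 and 9.92 in the arrays labelled undifferentiated and 9.34, 9.37 and 9.26 in those labelled differentiated. The groups were tight and clearly apart, with a change of -0.62 ± 0.09 (SE), a 1.54-fold difference (limma adjusted p = 3e-04). Atf4 is regulated largely at translation, which these arrays do not measure. Ddit3 (CHOP), the factor linked to cell death under prolonged ER stress, read 5.82, 5.51 and 6.32 against 5.69, 6.14 and 5.66 in the arrays labelled differentiated. Its groups overlapped fully, and the change was -0.05 ± 0.20 (SE, limma adjusted p = 0.882).

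Xbp1, whose spliced form drives chaperone genes, read 9.44, 9.23 and 9.38 in the arrays labelled undifferentiated and 9.61, 9.47 and 9.50 in those labelled differentiated. All 3 of the latter were higher, but by a margin that did not pass (0.17 ± 0.10, SE, limma adjusted p = 0.227). The table does not separate its spliced from its unspliced form. Atf5, a relative of Atf4, differed by -0.22 ± 0.10 (adjusted p = 0.129) without overlap of the groups.

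The remaining factors had values above 0 that did not pass and overlapping groups. Nupr1, a stress-induced chromatin protein, differed by 0.47 ± 0.20 (SE, limma adjusted p = 0.104), Atf3, an early stress factor, by 0.39 ± 0.22 (0.236) and Cebpb, a C/EBP factor, by 0.16 ± 0.10 (0.286). Atf3 was lowest in replicate 2 of both groups, at 8.24 and 8.68, against 8.91 and 9.07, and 9.35 and 9.36, in the others. Atf3 passed without differentiated replicate 2 (0.62, limma adjusted p = 0.0387), and Nupr1 passed without undifferentiated replicate 3 (0.73, adjusted p = 0.00366).

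ER chaperones and folding enzymes were mostly lower in the arrays labelled differentiated. Of 14 genes 8 fell, 1 rose and 5 did not pass, with a median of -0.37 and changes from -1.18 to 0.39. Only 4 fell once undifferentiated replicate 3 was left out, and 5 once differentiated replicate 3 was. The median was -0.26 with quantile normalization, so the size of this shift depended on the scaling.

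The largest falls were those of co-chaperones of Hspa5. Dnajb9 (ERdj4), an Hspa5 partner induced through Xbp1, read 8.43, 8.59 and 8.35 in the arrays labelled undifferentiated and 7.31, 7.36 and 7.16 in those labelled differentiated. The groups were about a full log2 unit apart, a change of -1.18 ± 0.10 (SE), 2.27-fold (limma adjusted p = 8.04e-06). Sdf2l1, an ER protein that works with J-domain partners of Hspa5 to hold back aggregation, read 8.05, 8.16 and 8.16 against 7.21, 6.99 and 6.73. Its undifferentiated arrays were nearly equal and all 3 others lower, a change of -1.15 ± 0.13 (limma adjusted p = 4.32e-05). No searched element was found in the promoter windows of Dnajb9 and Sdf2l1.

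Hspa5, the central ER chaperone, read 11.79, 11.84 and 11.99 in the arrays labelled undifferentiated and 11.56, 11.40 and 11.42 in those labelled differentiated. The groups did not overlap, and the change was -0.41 ± 0.11 (SE), 1.33-fold (limma adjusted p = 0.014). This call was lost with quantile normalization (-0.26, limma adjusted p = 0.0685) and in the absence of replicate 3 of either group (0.0733 for undifferentiated, 0.0502 for differentiated). Hyou1, which exchanges the nucleotide of Hspa5, read 9.44, 9.19 and 9.50 against 8.80, 8.68 and 8.75, all 3 lower, a change of -0.63 ± 0.11 (limma adjusted p = 0.000865). Pdia6, a disulphide isomerase, read 10.44, 10.32 and 10.59 against 9.96, 9.78 and 9.84, also without overlap, a change of -0.59 ± 0.11 (limma adjusted p = 0.0013).

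Canx, the lectin chaperone calnexin, fell by 0.44 (limma adjusted p = 0.0125), Dnajc3, another Hspa5 partner, by 0.39 (0.0161) and Pdia3, the isomerase that works with calnexin and calreticulin, by 0.35 (0.0315). Each lost its call under at least 1 alternative. Canx lost its call without undifferentiated replicate 3 (limma adjusted p = 0.0557) and differentiated replicate 2 (0.0508), and Dnajc3 without undifferentiated replicate 3 (0.0764) and differentiated replicate 3 (0.0592). Pdia3 changed by -0.10 with quantile normalization (limma adjusted p = 0.478) and lost its call without undifferentiated replicates 1 (0.067) and 3 (0.145) and differentiated replicates 2 (0.0996) and 3 (0.0767).

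Creld2, a secreted ER stress protein, was the chaperone-group gene that rose, by 0.39 ± 0.12 (SE, limma adjusted p = 0.0274), from 7.33 ± 0.10 to 7.72 ± 0.19 (SD, n = 3 each). It lost the call with median centring (adjusted p = 0.0511), without the mean-variance trend (0.0513) and without undifferentiated replicates 1 (0.0658) and 2 (0.096) or differentiated replicates 1 (0.08) and 2 (0.0918). Calr, calreticulin, differed by -0.25 ± 0.11 (limma adjusted p = 0.103), with groups that did not overlap, and passed without undifferentiated replicate 2 (-0.32, adjusted p = 0.037). Pdia4 differed by -0.23 ± 0.12 (adjusted p = 0.184) and Hsp90b1, the ER form of Hsp90, by -0.18 ± 0.11 (0.288). Dnajb11 differed by 0.11 ± 0.09 (adjusted p = 0.423) and Manf, a secreted ER stress protein with neurotrophic activity, by 0.09 ± 0.10 (0.561).

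**Figure D2:**
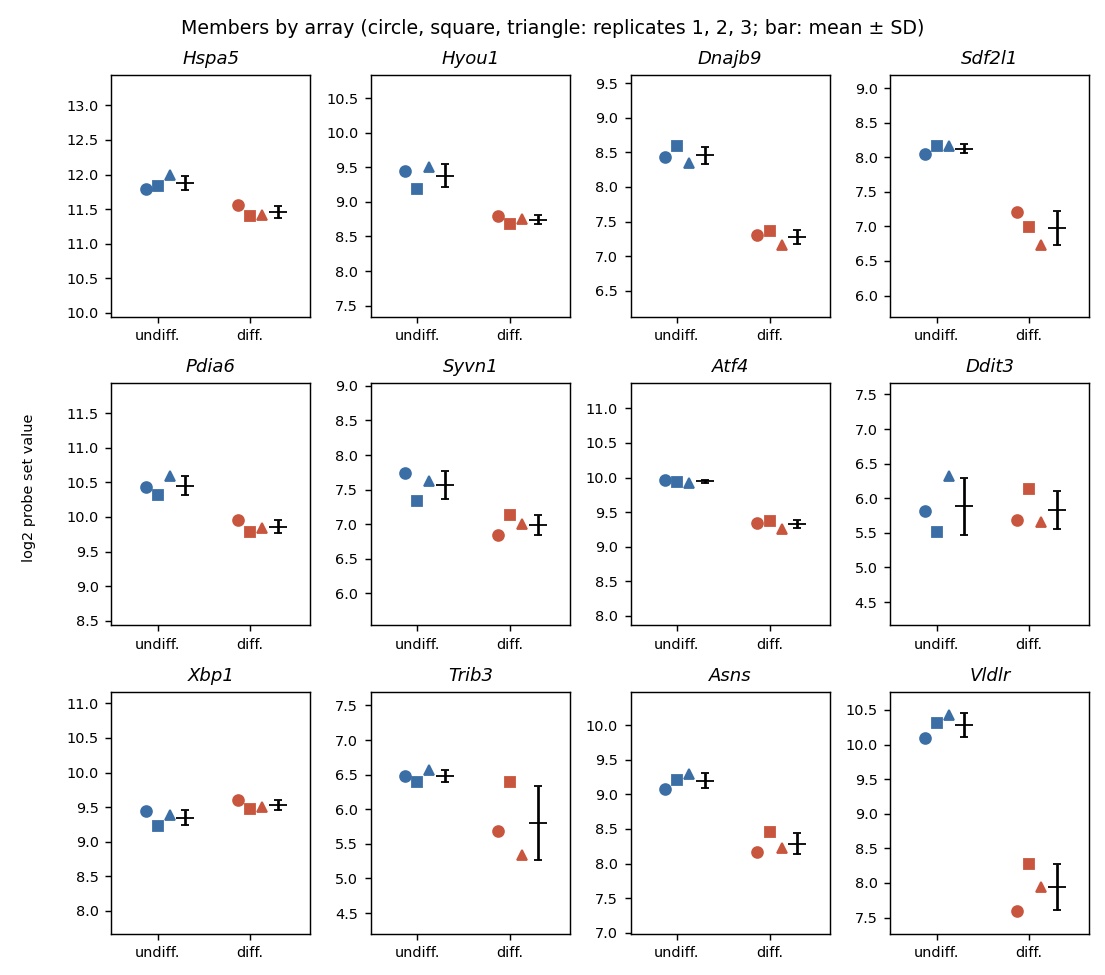
Log2 probe set values of 12 genes on each array, labelled undifferentiated in blue and labelled differentiated in red, with the mean ± SD of each group (n = 3) in black; all panels span the same height on the log2 scale. Dnajb9, Sdf2l1, Asns and Vldlr are far apart between groups, Ddit3 overlaps fully, and Trib3 is spread from 5.34 to 6.39 in the arrays labelled differentiated.

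All 3 measured genes of ER-associated degradation, which returns misfolded proteins to the cytosol for destruction, fell, with a median of -0.43. Syvn1 (HRD1), the ubiquitin ligase, read 7.74, 7.34 and 7.62 in the arrays labelled undifferentiated and 6.84, 7.13 and 7.01 in those labelled differentiated. The groups did not overlap, though the gap between the nearest arrays was small, and the change was -0.58 ± 0.13 (SE, limma adjusted p = 0.005). Herpud1, which recruits the ligase complex, fell by 0.43 ± 0.09 (limma adjusted p = 0.00444). Sel1l, the partner of Syvn1, fell by 0.32 ± 0.09 (limma adjusted p = 0.0254), a call lost without the mean-variance trend (0.0556) and without undifferentiated replicates 1 (0.0754) and 3 (0.0813) or differentiated replicate 3 (0.0976).

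Of the 5 measured genes listed as Atf4 targets 3 fell, 0 rose and 2 did not pass, with a median of -0.68 and changes from -2.34 to -0.05. The median is the change of the middle gene, Trib3, whose call was unstable (below). It was -0.44 with differentiated replicate 3 left out and -0.97 with differentiated replicate 2 left out, again the change of Trib3. Vldlr, a lipoprotein receptor that also binds reelin, showed the largest change of the 39 genes. It read 10.09, 10.31 and 10.43 in the arrays labelled undifferentiated and 7.60, 8.27 and 7.94 in those labelled differentiated. The groups were far apart, a change of -2.34 ± 0.16 (SE), 5.06-fold (limma adjusted p = 1.03e-06). Asns, asparagine synthetase, read 9.08, 9.21 and 9.30 against 8.17, 8.46 and 8.23. All 3 arrays labelled differentiated were lower, a change of -0.91 ± 0.11, 1.88-fold (limma adjusted p = 7.38e-05).

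Trib3, a pseudokinase that restrains Atf4 signalling, read 6.48, 6.40 and 6.56 in the arrays labelled undifferentiated and 5.69, 6.39 and 5.34 in those labelled differentiated. Replicate 2 of the latter nearly reached the other group, while the other two were lower. The change was -0.68 ± 0.22 (SE, limma adjusted p = 0.0356). The call was lost without the mean-variance trend (limma adjusted p = 0.053) and without undifferentiated replicates 1 (0.0811), 2 (0.074) and 3 (0.109) or differentiated replicates 1 (0.108) and 3 (0.127, change -0.44). Chac1, which degrades glutathione, differed by -0.21 ± 0.18 (limma adjusted p = 0.449), and its sign turned without differentiated replicate 3. Ppp1r15a (GADD34), which restores translation, differed by -0.05 ± 0.10 (adjusted p = 0.759).

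The serine and one-carbon enzymes did not move in 1 direction. Phgdh and Psat1, which carry out the first and second steps of serine synthesis from a glycolytic intermediate, rose, whereas Shmt2, which passes the carbon of serine to folate in mitochondria, fell. Of 5 genes 2 rose, 1 fell and 2 did not pass. The median of -0.18 therefore describes none of the moving genes, and it was 0.04 without differentiated replicate 3.

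Phgdh read 6.06, 5.73 and 5.97 in the arrays labelled undifferentiated and 6.60, 6.71 and 6.73 in those labelled differentiated. All 3 of the latter were higher, a change of 0.76 ± 0.12 (SE), 1.69-fold (limma adjusted p = 0.000597). Psat1 read 7.28, 6.74 and 7.19 against 7.94, 8.42 and 8.38, also without overlap, a change of 1.18 ± 0.16, 2.26-fold (limma adjusted p = 0.000228). Its second, dimmer probe set changed by 0.56 ± 0.18 (adjusted p = 0.033 over all probe sets of a single gene), so the direction held and the size did not. Psph, which completes serine synthesis, differed by -0.18 ± 0.19 (limma adjusted p = 0.551), from 5.58 to 5.96 against 5.15 to 5.92 in the arrays labelled differentiated, and its sign turned without differentiated replicate 3.

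Shmt2 read 9.51, 9.55 and 9.77 in the arrays labelled undifferentiated and 8.81, 9.10 and 8.91 in those labelled differentiated. The groups did not overlap, a change of -0.67 ± 0.11 (SE), 1.60-fold (limma adjusted p = 0.000769). Mthfd2, the next mitochondrial folate enzyme, read 8.76, 8.80 and 8.79 against 8.56, 8.63 and 8.40. All 3 were lower, but the change of -0.25 ± 0.10 did not pass (limma adjusted p = 0.0744), nor did its second probe set (-0.30 ± 0.11, adjusted p = 0.0743 over all probe sets of a single gene).

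**Figure D3:**
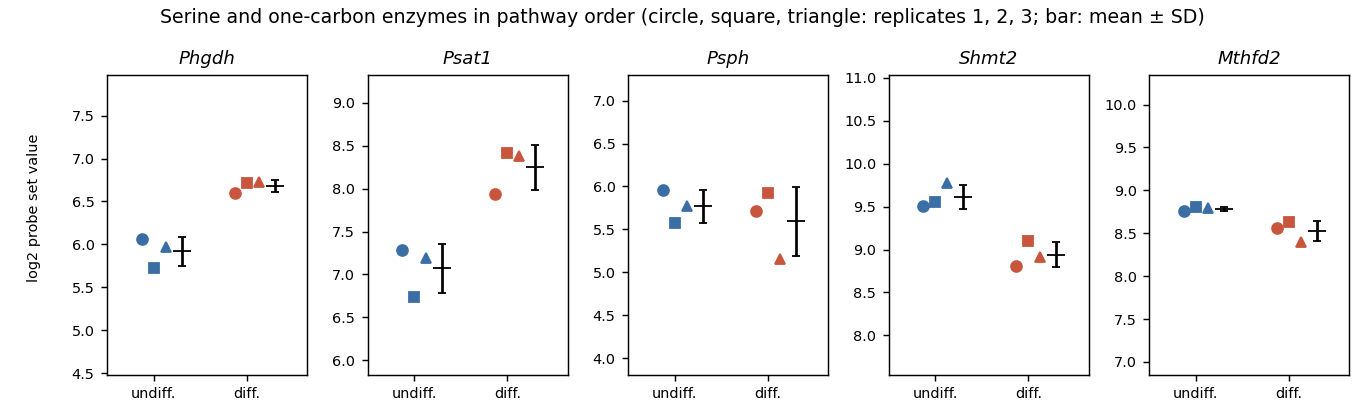
Log2 probe set values of the serine and one-carbon enzymes on each array, in the order of the pathway, labelled undifferentiated in blue and labelled differentiated in red, with the mean ± SD of each group (n = 3) in black. Phgdh and Psat1 are higher in all 3 arrays labelled differentiated, Shmt2 and Mthfd2 lower in all 3, and Psph overlaps.

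Of the 3 aminoacyl-tRNA synthetases, which charge tRNAs with amino acids and are induced by Atf4, 1 rose. Gars1, for glycine, rose by 0.35 ± 0.09 (SE, limma adjusted p = 0.0144), from 10.16 ± 0.07 to 10.51 ± 0.02 (SD, n = 3 each), and lost the call without undifferentiated replicate 3 (adjusted p = 0.051). Wars1, for tryptophan, differed by 0.12 ± 0.10 (adjusted p = 0.434) and Aars1, for alanine, by -0.12 ± 0.09 (adjusted p = 0.417).

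Across the arrays, the medians by role separated the labels for chaperones, degradation factors, sensors and Atf4 targets, and did not for transcription factors, serine enzymes and tRNA synthetases. Measured from the midpoint of the group means, the chaperone median was 0.13, 0.10 and 0.32 in the arrays labelled undifferentiated and -0.07, -0.26 and -0.21 in those labelled differentiated, while the median of all genes stayed between -0.03 and 0.03. The chaperones were highest in undifferentiated replicate 3. That array was the highest of its group for 21 of the 39 genes, against 33.5% of all genes, and undifferentiated replicate 2 was the lowest for 24, against 39.4%. For Atf4 targets the medians were 0.34, 0.25 and 0.42 against -0.45, -0.09 and -0.56, with differentiated replicate 2 nearest the other group. Differentiated replicate 2 was the highest of its group for 8 of the 10 Atf4 targets and serine enzymes, against 37.7% of all genes. These shares are descriptions, and their origin was not tested.

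**Figure D4:**
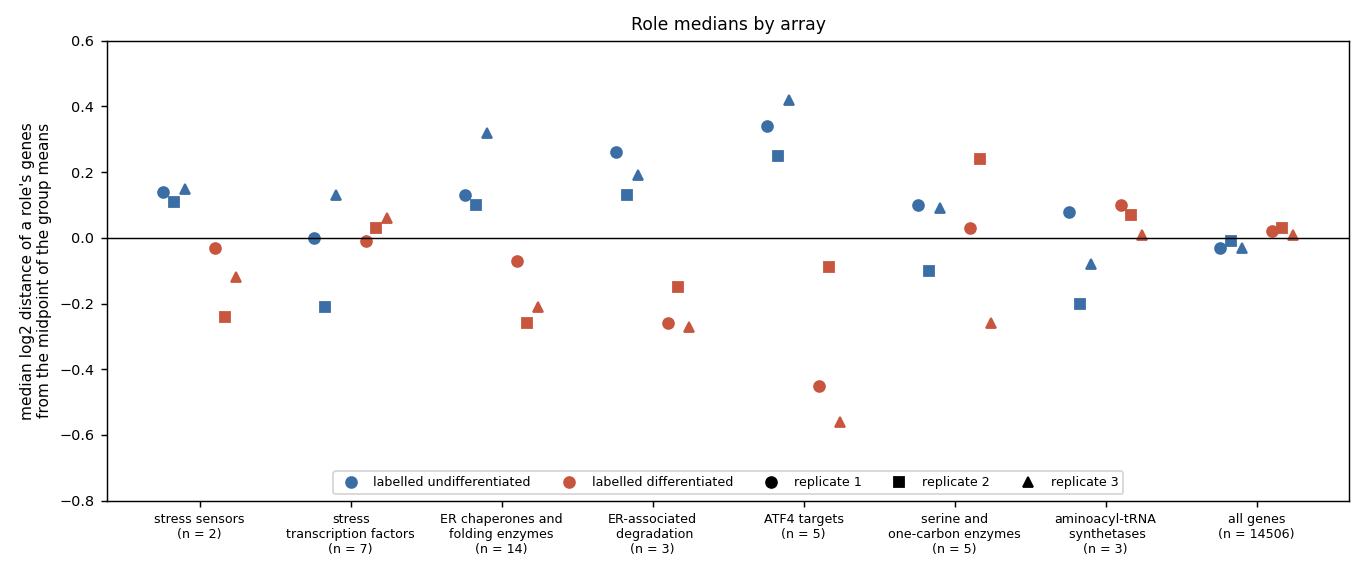
Median over the genes of each role, on each array, of the log2 distance from the midpoint of the group means, labelled undifferentiated in blue and labelled differentiated in red, with all 14506 genes at the right. Chaperones, degradation factors, sensors and Atf4 targets have all 3 red points below all 3 blue ones, and the spread among the red points of Atf4 targets, -0.56 to -0.09, is the widest of these.

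Other genes of the same pathways were taken from lists of known pathway genes, also chosen with earlier results of these data known. Among all 14506 genes 14.7% rose and 14.9% fell. Of 29 measured genes of ER folding and quality control beyond the chaperones above, 3 rose (10.3%), 14 fell (48.3%) and 12 did not pass. Their median was -0.30. Sil1, another nucleotide exchange factor of Hspa5, fell by 1.70 ± 0.15 (SE, limma adjusted p = 7.05e-06) and Os9, a lectin of ER-associated degradation, by 1.03 ± 0.10 (1.17e-05). Fkbp14, a prolyl isomerase that acts on collagen, rose by 1.36 ± 0.09 (limma adjusted p = 1.05e-06) and Creb3l1, a membrane-bound factor that drives collagen genes, by 0.85 ± 0.17 (0.00296). Genes of the folding machinery thus moved in both directions, with falls more frequent.

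The transport machinery of the ER was evenly divided. Of 30 genes of ER import and export 7 rose (23.3%), 9 fell (30%) and 14 did not pass, with a median of -0.04. Both shares were above those of all genes, 14.7% and 14.9%. With median centring 4 rose, and without undifferentiated replicate 2 also 4. Sec11c, a subunit of signal peptidase, fell by 1.50 ± 0.10 (SE, limma adjusted p = 1.16e-06) and Ddost, of the oligosaccharyltransferase, fell by 0.75 ± 0.09 (0.00012). Sec24d, a coat subunit of export vesicles known from procollagen transport, rose by 1.22 ± 0.10 (limma adjusted p = 6.14e-06) and Kdelr3, which retrieves ER residents, by 1.04 ± 0.14 (0.000161). Sec24d and Kdelr3 rose while the chaperones Hspa5, Hyou1 and Pdia6 fell.

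The wider integrated stress response showed no common direction. Of 24 genes 6 rose (25%), 3 fell (12.5%) and 15 did not pass, with a median near 0. The share that rose was above the 14.7% of all genes, and the share that fell was near their 14.9%. Over the removal of each array the number that rose ran from 4 to 6. Stc2, a secreted glycoprotein induced by ER stress and by hypoxia, fell by 2.40 ± 0.16 (SE, limma adjusted p = 7.63e-07), and Vegfa, the angiogenic factor, by 2.27 ± 0.19 (6.08e-06). Jdp2, a repressor of the AP-1 family, rose by 1.35 ± 0.15 (limma adjusted p = 4.79e-05), and Nfe2l2 (NRF2), of the oxidative stress response, by 0.60 ± 0.10 (0.0011).

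Other one-carbon, proline and glutamate enzymes leaned upward. Of 17 genes 8 rose (47.1%), 2 fell (11.8%) and 7 did not pass, with a median of 0.34. Among all genes 14.7% rose and 14.9% fell. The number that rose was 4 without differentiated replicate 2. It was 5 without differentiated replicate 3, undifferentiated replicate 2 or undifferentiated replicate 3. Aldh1l2, of mitochondrial folate metabolism, rose by 0.79 ± 0.13 (SE, limma adjusted p = 0.000628) and Shmt1, the cytosolic counterpart of Shmt2, by 0.76 ± 0.15 (0.00264). Mthfd2l, a relative of Mthfd2, fell by 1.20 ± 0.16 (limma adjusted p = 0.000137) and Mat2a, which makes S-adenosylmethionine, by 0.60 ± 0.12 (0.00259). Shmt1 and Shmt2 thus passed in opposite directions.

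Of 16 other cytosolic aminoacyl-tRNA synthetases 3 rose (18.8%), 0 fell and 13 did not pass, with a median of 0.13. The share that rose was near the 14.7% of all genes. The number that rose was 5 with quantile normalization, and it was 1 with median centring and after removal of undifferentiated replicate 1 or 2 or of differentiated replicate 2 or 3. Qars1, for glutamine, rose by 0.44 ± 0.10 (SE, limma adjusted p = 0.00642). Farsa, for phenylalanine, rose by 0.33 ± 0.10 (limma adjusted p = 0.0229), a call lost with median centring (0.0515) and without undifferentiated replicates 1 (0.0945) and 2 (0.0576) or differentiated replicates 2 (0.0581) and 3 (0.0639).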

How the data were processed

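Per the labels' protocols, biotin-labelled cRNA was made from 100 ng of total RNA and measured on Affymetrix arrays. The log2 values were used as the authors deposited them, for 29214 probe sets; the log base was inferred from their range, and the sources used here do not give the background correction, normalization or software. Of these probe sets 15310 carried exactly 1 gene symbol, 323 several, and 13581 were not listed in the platform table and are unnamed here. Per gene the probe set of highest mean was kept, 14506 genes in all.

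Differences were tested over all 6 arrays with limma (version 3.58.1, R version 4.3.3; lmFit and trended eBayes), two-sided, at a Benjamini-Hochberg adjusted p under 0.05 over all genes. The script was tested on simulated data. Lists and roles are described by counts and medians, with no test. Summed marker levels are sums of 2 to the power of the value. The number of arrays limits the precision; an exact permutation test of 3 against 3 arrays cannot go below p = 0.1.

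The members and lists were chosen with earlier results of these data known. All 42 members are named, and from each other list the 2 genes with the smallest p in each direction; all arrays are given for members that passed without overlap and changed by at least 0.5, and for Hspa5, Ddit3 and Xbp1. Mthfd2 and some members with overlapping arrays were added after their values were seen. Alternatives tried were quantile normalization, median centring, a block for the replicate number, removal of genes up to the 40th percentile of means, averaging of a gene's probe sets, eBayes without the trend, and removal of each array in turn. Promoters were searched in RefSeq sequences of GRCr8. Figures used matplotlib 3.10.9 in Python 3.11.15.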

Additional observations from a re-analysis of the deposited data

How the results depend on the processing

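Of the 21 members that passed, 13 kept their call and direction under every alternative run, and the other 8 (Hspa5, Dnajc3, Creld2, Canx, Pdia3, Sel1l, Trib3 and Gars1) lost it under at least 1. Of the 18 that did not pass, 3 passed under at least 1 alternative (Atf3, Nupr1 and Calr), and the sign of Ddit3, Chac1 and Psph turned when single arrays were left out. The number of members that fell ranged from 11 to 17 over the removal of each array, lowest without undifferentiated replicate 3, and 15 with quantile normalization. The chaperone median was -0.26 with quantile normalization; leaving out each array moved the median of Atf4 targets between -0.97 and -0.44 and that of serine and one-carbon enzymes between -0.30 and 0.04. The median of Atf4 targets was each time the change of Trib3. The cause of these shifts was not tested. The count of promoter sequences with an ERSE was 13 of 36 (36.1%) with 1 mismatch allowed, against 1.27% of all promoters. Same-numbered arrays deviated together with correlations of 0.12, 0.12 and 0 over all genes. Over the 39 measured members these correlations were 0.02, 0.22 and 0.3. Given the low values over all genes, the numbers are not taken to pair the arrays. With the replicate number as a block 6 members rose and 17 fell, with Atf3 (limma adjusted p = 0.01) and Nupr1 (limma adjusted p = 0.00798) passing, and no member lost its call. Not every array correlated best with its own number. How far dim probe sets stood above background is not known here.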

Other observations

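Chaperones outside the ER showed no common direction. Of 17 measured genes of the cytosolic heat shock response 2 rose (11.8%), 5 fell (29.4%) and 10 did not pass, with a median of 0.02. Among all genes 14.7% rose and 14.9% fell. Hspa4l, a nucleotide exchange factor of the Hsp110 family, read 9.0, 9.17 and 9.13 in the arrays labelled undifferentiated and 6.63, 6.33 and 6.42 in those labelled differentiated, a fall of 6.22-fold (limma adjusted p = 4.93e-08). Bag3, a co-chaperone of selective autophagy, fell by 0.80 (limma adjusted p = 6.32e-05). The small heat shock protein Hspb1 rose by 0.69 (limma adjusted p = 0.0217) and Dnajb4 by 0.43 (0.0142), and no gene of the list rose without undifferentiated replicate 2. The number that fell was 3 without undifferentiated replicate 2, undifferentiated replicate 3 or differentiated replicate 3.

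Of 11 measured mitochondrial chaperones and proteases 4 rose (36.4%), 2 fell (18.2%) and 5 did not pass, with a median of 0.13. The corresponding shares of all genes were 14.7% and 14.9%. The chaperonin Hspd1 and its partner Hspe1 rose by 0.53 and 0.56 (limma adjusted p = 0.00115 and 0.00145). Clpx, the unfoldase of a matrix protease, fell by 0.71 (limma adjusted p = 0.000228). Hspa9, the mitochondrial Hsp70, fell by 0.30 (limma adjusted p = 0.0415), a call lost without the mean-variance trend (0.0757), with the replicate number as a block (0.0606) and whenever an array was left out (0.0511 to 0.154).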
